A study of Mus musculus with 19 samples.

Results

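The genes of luminal identity and hormone response in the mammary gland were examined as 10 genes: the receptor genes Esr1, Pgr and Prlr, the transcription factor genes Gata3, Foxa1 and Elf5, the receptor kinase gene Kit, and the keratin genes Krt8, Krt18 and Krt19. They were chosen by name. Each was read from the probe set with the highest mean level among those annotated to that gene alone. Of the 10 genes, 9 were measured among 22180 genes of the array, and 8 passed the filter on low levels that left 14231 genes for testing. Prlr was not analysed here, and Pgr was measured and fell under the filter.

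The study asked what loss of integrin beta subunits does to ErbB2-driven mammary tumours. All 19 tumours, controls included, carried the MMTV-NIC transgene, in which the mouse mammary tumour virus promoter drives activated ErbB2 (Neu) and Cre recombinase from 1 transcript. They fell into 6 tumours labelled double knockout (Itgb1 and Itgb3 deleted), 4 with Itgb1 knockout, 4 with Itgb3 knockout and 5 controls with neither deleted. RNA came from whole flash frozen tumours at end burden, so stroma, vessels and immune cells contributed. In which cells Cre acted was not measured here. Each tumour's title carries its own number, but the labels do not say that the numbers stand for separate animals, and p-values then reflect only how these samples scatter, which may be technical.

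In the mammary gland, luminal cells line the ducts and alveoli above a layer of basal myoepithelial cells. Hormone-sensing luminal cells carry the receptors for oestrogen, progesterone and prolactin and depend on the factors GATA3 and FOXA1, while alveolar cells and their progenitors rely on ELF5 and carry KIT. Keratins 8 and 18 form the paired filaments of luminal cells, and keratin 19 is a partner of keratin 8 in many simple epithelia.

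The deposited values are log2 intensities, so a difference of 1 is a doubling. Levels of different genes are not compared, since each probe set has its own response. Itgb1 averaged 8.32 in the labelled double knockouts and 8.70 in the Itgb1 knockouts, against 10.04 in the Itgb3 knockouts and 10.16 in control. Itgb3 averaged 7.01 in the Itgb3 knockouts and 8.12 in control, but 8.13 in the tumours labelled double knockout, which lay above every Itgb3 knockout (difference 1.13, SE 0.244, limma adjusted p = 0.0223). The group is therefore called the labelled double knockouts throughout, and every direction drawn from it carries this limit. Erbb2 passed in none of the 8 comparisons. The array medians ran from 4.32 to 4.48. They were 4.32 to 4.34 in the labelled double knockouts and 4.41 to 4.48 in the Itgb3 knockouts, without overlap. Array level and genotype thus cannot be told apart in that comparison. By correlation no array stood apart from the rest (medians of 0.969 to 0.980 with the other arrays).

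No difference between genotypes passed the test for any of the 8 tested genes. Limma gave 0 of 8 at an adjusted p of 0.05 in each of the 8 comparisons, and 8 of the 64 gene-by-comparison tests had an unadjusted p under 0.05. These were Krt8, Elf5 and Esr1 in the labelled double knockouts against the Itgb3 knockouts (21.1% of all genes had such a p), Krt8 and Foxa1 against the Itgb1 knockouts (12.3%) and in the interaction (12.5%), and Foxa1 in the Itgb1 knockouts against control (4.86%). In the remaining comparisons 0 of 8 had one, where all genes gave 16.9% for the labelled double knockouts against control, 6.14% for the Itgb3 knockouts against control, 4.55% for the Itgb3 against the Itgb1 knockouts and 13.8% for Itgb1-deleted against Itgb1-intact tumours. At an adjusted p of 0.05 the background over all 14231 genes was 0.386% called for the labelled double knockouts against control, 0.00703% for the Itgb1 knockouts against control, 0% for the Itgb3 knockouts against control, 2.87% for the labelled double knockouts against the Itgb3 knockouts and 0.0211% against the Itgb1 knockouts. It was 0% for the Itgb3 against the Itgb1 knockouts, 0% for the interaction (the labelled double knockout difference from control after subtracting both single knockout ones) and 0.0351% for both Itgb1-deleted groups against both Itgb1-intact groups. Since no comparison passed, groups next to each other in the order of their means were not separated for any of the 8 genes. Krt8 came nearest.

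**Figure D1:**
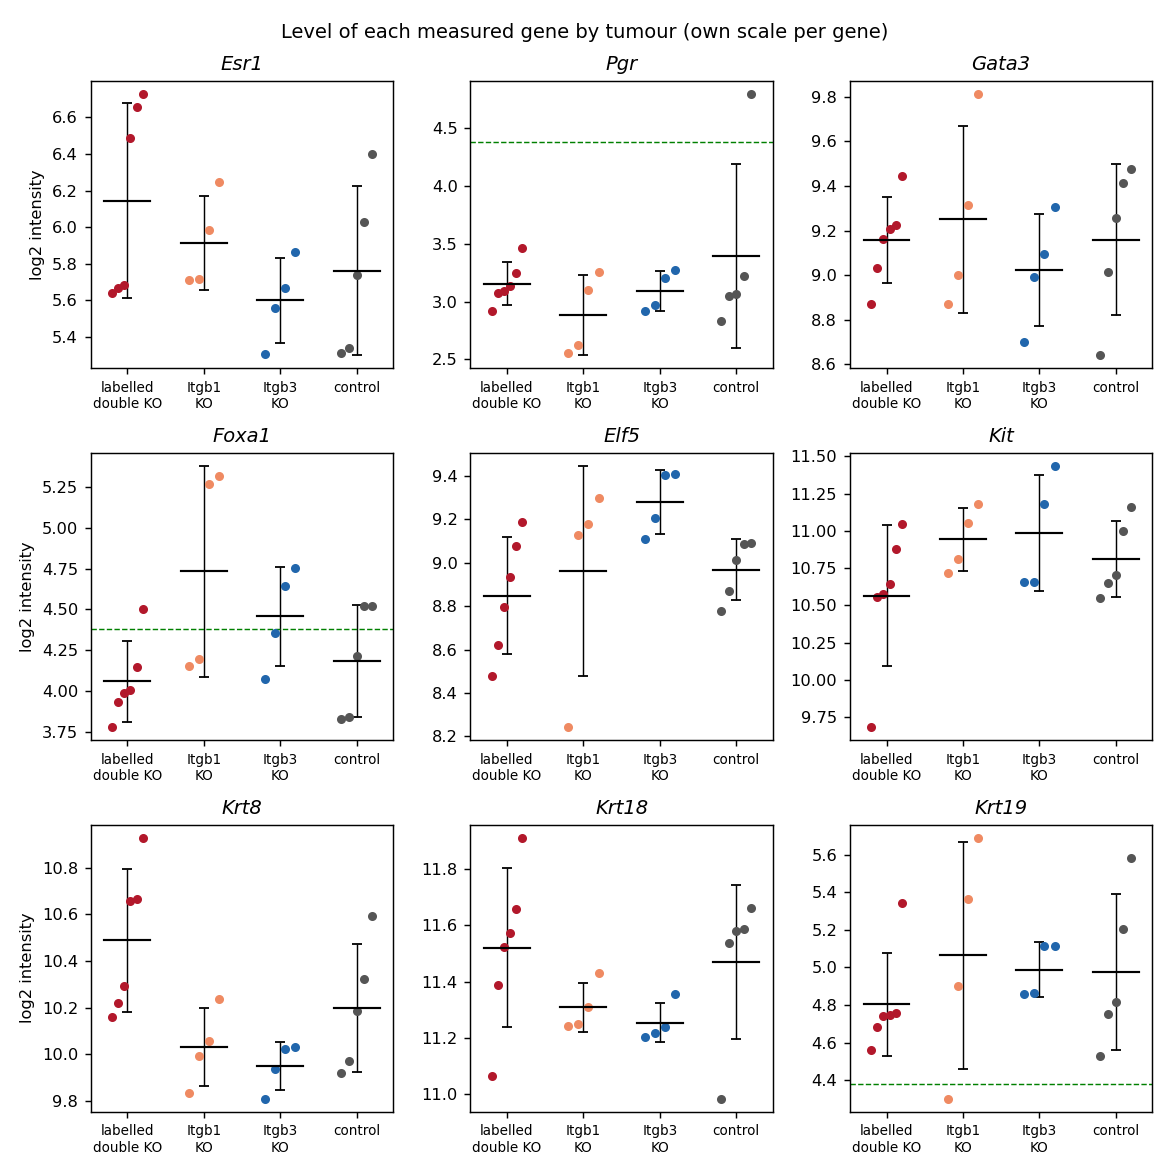
Log2 intensity of the 9 measured genes in every tumour, each gene on its own axis. Each point is 1 tumour, the horizontal line is the group mean and the bar spans 1 SD on each side. The dashed green line is the filter at 4.38, drawn where it lies within a panel. All 6 labelled double knockouts lie above all 4 Itgb3 knockouts for Krt8, and Pgr reaches the filter in 1 control tumour.

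The promoters of 4 of these genes are shown for the Krt8 and Krt18 pair and the Esr1 and Gata3 pair, whose correlations among tumours were among the 3 highest and did not pass adjustment. Foxa1 and Krt19, the pair with the highest correlation, are not shown as a pair because the promoter table used here gave no Krt19 entry. Krt8 and Krt18 are neighbours on chromosome 15, on opposite strands. Each line gives the 250 bases before the annotated start, 5′ to 3′ on the gene's own strand, from RefSeq with the build GRCm38.p6. The Krt8 stretch is chr15:102004343-102004592 on the minus strand and the Krt18 stretch is chr15:102027966-102028215 on the plus strand. The Esr1 stretch is chr10:4611739-4611988 on the plus strand, the first of the promoters listed for that gene, and the Gata3 stretch is chr2:9878601-9878850 on the minus strand. Capitals mark matches on either strand. The letters searched were TATAAA for the TATA box, GGGCGG for the GC box and CCAAT for the CCAAT box. For factor families they were AGATAA for the GATA family, TGTTTAC for forkhead factors, CCGGAAGT for ETS factors and TTCNNNGAA for STAT5, and the palindromic oestrogen response element was searched as well.
Krt8 promoter: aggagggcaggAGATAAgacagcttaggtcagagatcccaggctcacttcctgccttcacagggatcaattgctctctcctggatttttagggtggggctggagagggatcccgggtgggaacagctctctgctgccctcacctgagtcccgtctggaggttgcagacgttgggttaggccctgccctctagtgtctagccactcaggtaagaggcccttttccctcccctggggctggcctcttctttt
Krt18 promoter: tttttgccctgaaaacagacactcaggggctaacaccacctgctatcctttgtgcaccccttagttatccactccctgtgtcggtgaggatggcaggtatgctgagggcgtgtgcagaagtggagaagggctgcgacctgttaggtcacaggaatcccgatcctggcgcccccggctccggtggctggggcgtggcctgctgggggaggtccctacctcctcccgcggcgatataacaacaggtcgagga
Esr1 promoter: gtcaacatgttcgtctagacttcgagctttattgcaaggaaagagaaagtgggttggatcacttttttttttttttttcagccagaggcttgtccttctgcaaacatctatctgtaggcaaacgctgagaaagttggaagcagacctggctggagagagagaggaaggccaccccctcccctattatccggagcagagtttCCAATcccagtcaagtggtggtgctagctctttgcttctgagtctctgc
Gata3 promoter: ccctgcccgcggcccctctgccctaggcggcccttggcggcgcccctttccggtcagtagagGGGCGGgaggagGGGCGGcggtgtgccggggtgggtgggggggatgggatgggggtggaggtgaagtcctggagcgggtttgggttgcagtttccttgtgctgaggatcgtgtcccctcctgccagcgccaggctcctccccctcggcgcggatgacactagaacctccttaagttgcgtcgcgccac
The Krt8 stretch held a single GATA match, 239 to 234 bases before the start. The Krt18 stretch held no match to these letters. The Esr1 stretch held a CCAAT box 49 to 45 bases before the start, and the Gata3 stretch held GC boxes at 188 to 183 and at 176 to 171 bases before it. Of all 32851 promoters of this length, 9.99% hold the GATA letters, 33.8% the CCAAT box and 32.7% the GC box. These matches describe the letters and show no binding.

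Among the hormone receptors, Esr1 encodes the oestrogen receptor alpha. Its log2 level was 6.49, 5.64, 6.73, 5.68, 6.66 and 5.67 in the labelled double knockouts, in replicate order. The Itgb1 knockouts had 6.25, 5.98, 5.71 and 5.72, the Itgb3 knockouts 5.67, 5.86, 5.56 and 5.31, and the controls 5.74, 6.03, 6.40, 5.31 and 5.34. The labelled double knockouts split into 3 tumours above every control and 3 within the control range. Their mean was 0.38 above control (SE 0.235, adjusted p = 0.429) and 0.54 above the Itgb3 knockouts (SE 0.251, adjusted p = 0.221). Only 3 of these 6 tumours lay above all Itgb3 knockouts. With array weights, which count less uniform arrays for less, the second difference was 0.73 (limma adjusted p = 0.0344). Both Itgb1-deleted groups together were 0.35 above both Itgb1-intact groups (SE 0.181, adjusted p = 0.399). Esr1 had a within-group SD of 0.418, larger than that of 86.3% of tested genes.

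Pgr encodes the progesterone receptor, a classical target of oestrogen receptor alpha. Its log2 level ran from 2.92 to 3.46 in the labelled double knockouts (median 3.11). It was 2.62, 2.56, 3.25 and 3.10 in the Itgb1 knockouts, 2.97, 3.20, 2.92 and 3.28 in the Itgb3 knockouts, and 3.06, 4.79, 2.84, 3.22 and 3.05 in control. Control replicate 2 was the single tumour of 19 at or above the filter of 4.38. Below that filter a level has only a bound, so no fold is given for the groups. Greb1 and Tnfsf11, products of the oestrogen and progesterone response, stayed under the filter on all 19 arrays. Of the other measured products and regulators of hormone-sensing cells, Agr2 reached it on 1 array, Tff3 on 2, Msx2 on 9 and Wnt4 on 10. Cited1, Stc2, Prom1, Tbx3, Myb, Xbp1 and Bcl2 reached it on all 19.

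Gata3 encodes a zinc finger factor that luminal cells need to keep their identity. Its log2 level ran from 8.87 to 9.45 in the labelled double knockouts (median 9.18). It was 8.87, 9.81, 9.0 and 9.32 in the Itgb1 knockouts, 9.09, 9.30, 8.99 and 8.70 in the Itgb3 knockouts, and 9.25, 9.41, 9.47, 8.64 and 9.01 in control. The groups overlapped throughout. The labelled double knockouts differed from control by −0.0018 with a 95% interval of −0.37 to 0.36, and the Itgb1 knockouts differed from control by 0.09 (interval −0.32 to 0.50). Another probe set annotated to Gata3 alone correlated with the one used at r = 0.78 across the 19 arrays.

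Foxa1 encodes the pioneer factor that opens chromatin for the oestrogen receptor. Its level lay near the filter, at or above 4.38 in 7 of 19 tumours, of which 1 was a labelled double knockout, so the differences below rest largely on values under the filter and no fold is given. The labelled double knockouts had log2 levels of 4.50, 4.01, 3.78, 3.93, 4.15 and 3.99. The Itgb1 knockouts had 4.19, 4.15, 5.27 and 5.32, the Itgb3 knockouts 4.35, 4.07, 4.75 and 4.65, and the controls 3.83, 3.84, 4.52, 4.21 and 4.52. The Itgb1 knockouts thus held 2 tumours above every other tumour of the series and 2 within the control range. The difference between labelled double knockouts and Itgb1 knockouts was −0.67 (SE 0.236, adjusted p = 0.254), and that between Itgb1 knockouts and control was 0.55 (SE 0.246, adjusted p = 0.982). The interaction was −0.95 (interval −1.66 to −0.23, adjusted p = 0.288).

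Elf5 encodes the ETS factor of alveolar cells and milk secretion, which acts downstream of the prolactin receptor. Its log2 level was 9.40, 9.41, 9.11 and 9.21 in the Itgb3 knockouts, against 9.09, 8.78, 9.01, 9.09 and 8.87 in control. All 4 Itgb3 knockouts lay above every control, as 1.17% of all genes did, and the difference of 0.31 did not pass (interval −0.07 to 0.70, adjusted p = 0.847). In the labelled double knockouts Elf5 ran from 8.48 to 9.19 (median 8.87), and the Itgb1 knockouts had 8.24, 9.30, 9.18 and 9.13. Against the Itgb3 knockouts the labelled double knockouts differed by −0.43, with 5 of 6 tumours under all of them (SE 0.177, adjusted p = 0.172). Without Itgb1 knockout replicate 1, at 8.24, the Itgb1 knockouts differed from control by 0.23, against −0.0063 with all tumours.

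Kit encodes the stem cell factor receptor, carried by luminal progenitors and also by mast cells. Its log2 level ran from 9.68 to 11.05 in the labelled double knockouts (median 10.61). It was 10.72, 11.18, 11.06 and 10.81 in the Itgb1 knockouts, 10.66, 11.18, 10.66 and 11.44 in the Itgb3 knockouts, and 11.00, 10.65, 10.70, 10.55 and 11.16 in control. Labelled double knockouts minus Itgb3 knockouts gave −0.42 (SE 0.219, adjusted p = 0.281), and minus control −0.25 (SE 0.206, adjusted p = 0.572). Leaving out their replicate 6, at 9.68, these became −0.24 and −0.07. In bulk tumours fewer cells of a type and less RNA per cell cannot be told apart, for Kit as for the other genes. Among mast cell genes Fcer1a, Ms4a2, Hdc, Gata2, Cma1 and Mrgprb1 were under the filter on every array, while Cpa3 reached it on 10 and Tpsb2 on 8. With the general epithelial markers as a covariate the difference from the Itgb3 knockouts was −0.83 (limma adjusted p = 0.0449).

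Among the keratins, Krt8 and Krt18 had the smallest within-group SDs of the 8 genes (0.243 and 0.221, beside a median of 0.242 over all tested genes), while that of Krt19 was 0.386. Krt8 encodes the type II keratin of luminal cells. Its log2 level was 10.93, 10.66, 10.16, 10.29, 10.22 and 10.67 in the labelled double knockouts, 10.06, 9.83, 9.99 and 10.24 in the Itgb1 knockouts, 9.94, 9.81, 10.02 and 10.03 in the Itgb3 knockouts, and 10.19, 10.32, 9.97, 9.92 and 10.59 in control. All 6 labelled double knockouts lay above all 4 Itgb3 knockouts, as 5.88% of all genes did. The difference was 0.54 (SE 0.155, interval 0.21 to 0.86, 1.45-fold, adjusted p = 0.0622). Against the Itgb1 knockouts it was 0.46 (SE 0.155, adjusted p = 0.242), with 4 of 6 tumours above them all. Against control it was 0.29 (SE 0.146, adjusted p = 0.320), with 3 of 6 above. The interaction was 0.70 (interval 0.24 to 1.17, adjusted p = 0.237). With the arrays centred on their medians the difference from the Itgb3 knockouts was 0.65 (limma adjusted p = 0.0219), with array weights 0.49 (0.0332) and without control replicate 5 0.54 (0.0498), so the call turns on the processing.

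Krt18 encodes the type I partner of keratin 8. Its log2 level was 11.91, 11.66, 11.39, 11.07, 11.57 and 11.52 in the labelled double knockouts and 11.66, 11.58, 10.98, 11.54 and 11.59 in control. The Itgb1 knockouts lay between 11.24 and 11.43 and the Itgb3 knockouts between 11.20 and 11.36. The labelled double knockouts and the controls each held 1 low tumour and otherwise ran above most single knockouts. The difference between labelled double knockouts and Itgb3 knockouts was 0.26 (SE 0.144, adjusted p = 0.299), and 5 of 6 tumours lay above all Itgb3 knockouts. Krt18 has another probe set, which correlated with the one used at only r = 0.34, and with the mean of both the difference was 0.60 (adjusted p = 0.0674). The size of the Krt18 difference thus depends on the probe set.

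Krt19 encodes the short type I keratin. Its log2 level ran from 4.56 to 5.34 in the labelled double knockouts (median 4.75). It was 4.90, 4.30, 5.69 and 5.37 in the Itgb1 knockouts, 4.86, 4.86, 5.11 and 5.12 in the Itgb3 knockouts, and 4.53, 4.75, 5.20, 5.58 and 4.82 in control. The groups overlapped, and the largest difference between a pair of groups was −0.26, labelled double knockouts minus Itgb1 knockouts (adjusted p = 0.691). Krt14, the myoepithelial keratin, lay under the filter on all 19 arrays, as did Krt1, Krt4, Krt6a, Krt6b, Krt15, Krt16 and Krt20. Krt13 reached it on 2, Krt17 on 7, Krt10 on 17, and Krt7, Krt23 and Krt80 on all 19. Of the other basal markers, Lama3 reached it on 0, Trp63 on 2, Lgals7 on 10, Cnn1 on 12 and Oxtr on 18. Acta2, Myh11, Mylk, Sparcl1, Jag1, Egfr and Snai2 reached it on all 19.

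**Figure D2:**
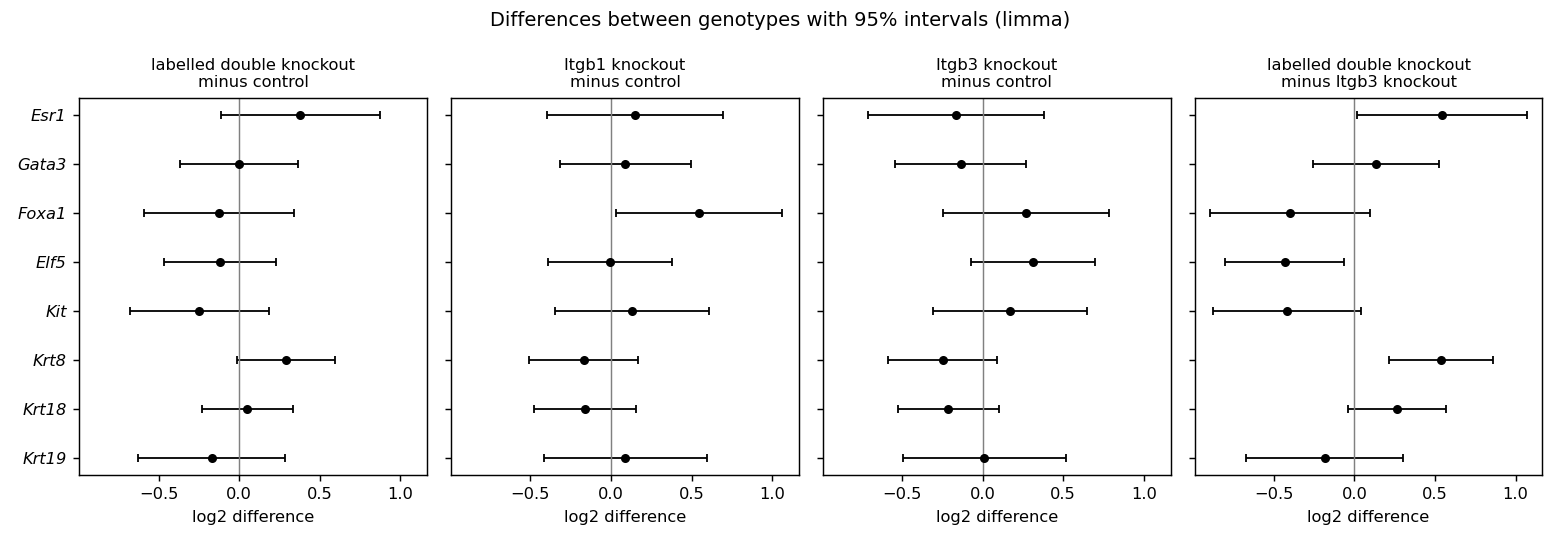
Log2 difference of each tested gene with its 95% interval from limma, in 4 of the 8 comparisons. The vertical line is at 0. For the labelled double knockouts against the Itgb3 knockouts Krt8 is at 0.54 and its interval runs from 0.21 to 0.86, and no gene passed after adjustment over 14231 genes.

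No pair of genes passed the test for joint variation among tumours of one genotype. The highest correlations are given as values. With the group means removed, Foxa1 and Krt19 had r = 0.75 and rho = 0.74 over 19 tumours (within-group permutation p = 0.00565 and 0.0091, adjusted 0.158 and 0.127 over 28 pairs), and r = 0.69 without the 2 tumours farthest from the median. Foxa1 reached the filter in 7 of these tumours and Krt19 in 18, so this value rests largely on Foxa1 levels under the filter. Esr1 and Gata3 had r = 0.55 and rho = 0.58 (permutation p = 0.0129 and 0.00792, adjusted 0.181 and 0.127), and r = 0.52 without the 2 farthest. Krt8 and Krt18 had r = 0.61 and rho = 0.60 (permutation p = 0.0369 and 0.0236, adjusted 0.344 and 0.220), and r = 0.47 without the 2 farthest. With the mean of all probe sets of a gene, r was 0.43 for Krt8 and Krt18. For Gata3 and Krt18 it moved from −0.10 to 0.56, so the Krt18 correlations depend on the probe set. Foxa1 with Krt19, Esr1 with Gata3 and Krt8 with Krt18 were the 3 pairs with an unadjusted p under 0.05 for r, and 0 of 28 passed the adjustment. The 2 Itgb1 knockouts high in Foxa1, replicates 3 and 4, were also the 2 of their group highest in Krt19. Gata3 and Krt19 had the lowest r, −0.52, which was −0.16 without the 2 farthest tumours.

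**Figure D3:**
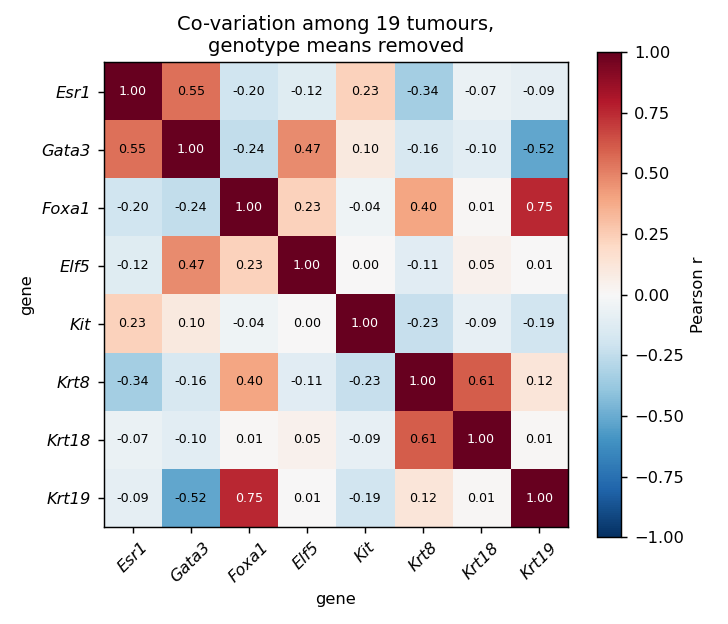
Pearson correlation between each pair of tested genes over 19 tumours after removal of the genotype means. Red is positive and blue negative, and the number in each cell is r. Foxa1 with Krt19 (0.75), Krt8 with Krt18 (0.61) and Esr1 with Gata3 (0.55) are the highest.

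For some members, the genes whose levels were most like them across the 19 arrays often shared a chromosome with one another. For Krt8 these were Pacsin2 (r = 0.89), Scrib (0.88) and Prkag1 (0.87), and for Krt18 Arid2 (0.81), Scaf11 (0.79) and Washc5 (0.77), all 6 on chromosome 15 with both keratin genes. Of the 100 genes most like Krt8, 41 lay on chromosome 15, and of those most like Krt18, 38 did, where 4.19% of tested genes do. For Gata3 the closest were Samhd1, Fitm2 and Arfgap2 (r = 0.81, 0.81 and 0.80), on its own chromosome 2, and 26 of the 100 were there, as were 24 of the 100 most like Elf5, against 7.93% of tested genes. Esr1, on chromosome 10, was most like Fbrs, Lysmd4 and Rnf169 (r = 0.80, 0.79 and 0.78), all on chromosome 7, which held 44 of its 100 and holds 8.2% of tested genes. For Elf5 the closest were Serinc3, Slc25a11 and Ccnq (r = 0.78, 0.78 and 0.76), and for Kit Pias2, Nptx2 and B3glct (r = 0.80, 0.78 and 0.77). For Foxa1 they were Hmgn1, Trmt10c and Pcbd2 (r = 0.78, 0.77 and 0.76), and for Krt19 Pcbd2, D6Wsu163e and Mrpl57 (r = 0.81, 0.78 and 0.74), so Pcbd2 stood on both lists. Of the 100 genes most like Foxa1, 2 lay on its own chromosome 12, where 3.52% of tested genes do. For Krt19, 6 lay on chromosome 11 (8.28% of tested genes), and for Kit, 10 lay on chromosome 5 (6.25%). The most frequent chromosome was X for Foxa1 (12 of 100, 3.2% of tested genes). It was 3 for Krt19 (12, 4.72%) and 18 for Kit (19, 2.5%). These correlations and counts are across the same 19 arrays and carry no test.

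The mean of the tested genes of chromosome 15, taken against the median tumour, was 0.23 and 0.29 in labelled double knockout replicates 1 and 2, and between −0.11 and 0.08 in the other tumours. Replicate 1 was the highest of all tumours in Krt8 and Krt18. Replicate 2, with the highest mean, had Krt8 at 10.66 and Krt18 at 11.658. Krt8 was as high, at 10.67, in labelled double knockout replicate 6, whose chromosome 15 mean was 0.008. Krt18 was 11.660 in control replicate 1, whose chromosome 15 mean was −0.075. With group means removed, that mean correlated with Krt18 at r = 0.64 and rho = 0.69 (permutation p = 0.0139 and 0.00394, adjusted 0.111 and 0.0315 over 8 genes, r = 0.58 without the 2 farthest tumours). For Krt8 it was r = 0.55 and rho = 0.51 (permutation p = 0.0626 and 0.0694, adjusted 0.142 and 0.210, r = 0.54 without the 2 farthest). Each other gene was set against the mean of its own chromosome. There r was 0.57 for Krt19, 0.50 for Gata3, 0.42 for Elf5, 0.14 for Foxa1 and Kit, and −0.06 for Esr1. None of these passed (permutation test, adjusted p of 0.142 or more for r). With the chromosome 15 mean as a covariate, chosen after seeing the data, the Krt8 difference between labelled double knockouts and Itgb3 knockouts was 0.25 (SE 0.180, adjusted p = 0.630). Without labelled double knockout replicates 1 and 2 it was 0.39 (adjusted p = 0.228). The chromosome 15 mean ran from −0.026 to 0.288 in the labelled double knockouts and from −0.102 to −0.030 in the Itgb3 knockouts, without overlap. That mean and genotype thus cannot be told apart in this comparison, and the cause of the Krt8 difference was not tested. DNA copy number was not analysed here.

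**Figure D4:**
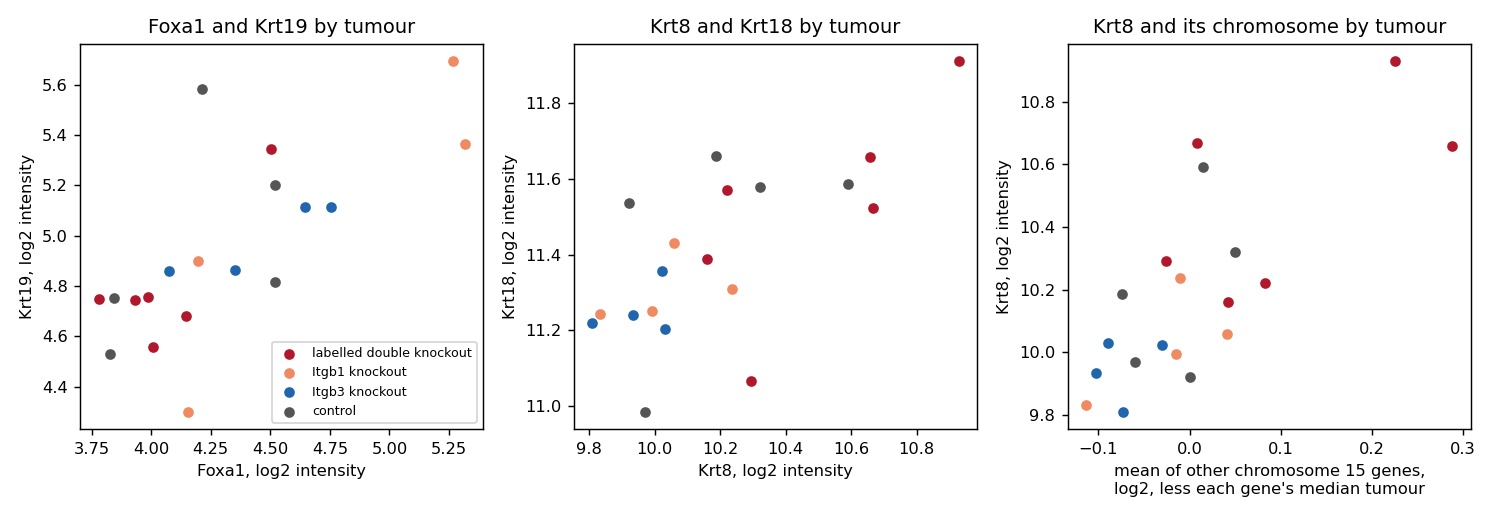
Each point is 1 of 19 tumours, coloured by genotype, on log2 axes. The left panel sets Krt19 against Foxa1, the middle panel Krt18 against Krt8, and the right panel Krt8 against the mean of the other chromosome 15 genes. Labelled double knockout replicates 1 and 2 lie at the right of the right panel, at 0.23 and 0.29.

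The genes around these receptors and factors were read from lists of related genes. The counts that follow stand beside 338 genes higher and 70 lower of 14231 for the labelled double knockouts against the Itgb3 knockouts (2.87% in all). Of 9 tested products and regulators of hormone-sensing cells, 1 was called higher and 1 lower in that comparison, and 0 of 9 passed against control. The higher one, the homeobox factor Msx2, reached the filter in 6 of 6 labelled double knockouts and in 1 tumour of each other group, so it was tested only through the group where it was high. It was at 4.97 ± 0.26 (SD, n = 6), against 4.05 ± 0.34 (n = 4) in the Itgb3 knockouts (difference 0.93, SE 0.244, limma adjusted p = 0.0468). Cited1, a transcriptional coactivator found in ductal luminal cells, was lower at 5.45 ± 0.12, against 6.03 ± 0.19 (difference −0.58, SE 0.113, limma adjusted p = 0.0163), with all 6 tumours under all 4, as 3.07% of all genes had. Against control Cited1 also had all 6 tumours below every control without passing (−0.48, limma adjusted p = 0.0569), where 0.597% of all genes lay wholly below. Msx2 had all 6 above every control without passing (0.97, limma adjusted p = 0.0648), where 1.19% of all genes lay wholly above. Most Msx2 levels outside the labelled double knockouts were under the filter. Its differences, separation and p-values are therefore description only.

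Of 15 tested genes of prolactin, JAK2 and STAT5 signalling, 2 fell against the Itgb3 knockouts and 0 rose. Id2, an inhibitor of differentiation factors needed for alveolar growth, was at 10.71 ± 0.19 in the labelled double knockouts and 11.18 ± 0.08 in the Itgb3 knockouts (difference −0.47, limma adjusted p = 0.0466). Erbb4, a receptor that signals to STAT5 in lactation, was at 6.0 ± 0.57 and 7.09 ± 0.30 (difference −1.09, limma adjusted p = 0.0431). Against control neither passed in the labelled double knockouts (Id2 −0.15 and Erbb4 −0.36, limma adjusted p = 0.525 and 0.511) or in the Itgb3 knockouts (Id2 0.32 and Erbb4 0.73, limma adjusted p = 0.796 for both). Of 15 tested alveolar and secretory genes, Cd14, a lipopolysaccharide co-receptor of luminal progenitors and macrophages, rose in the labelled double knockouts against both control (1.59, SE 0.229, limma adjusted p = 0.00514) and the Itgb3 knockouts (1.19, SE 0.245, limma adjusted p = 0.0182). Macrophage markers moved with it: Adgre1 and Csf1r also rose against the Itgb3 knockouts (0.98 each, limma adjusted p = 0.0163 and 0.0341), and all 10 tested macrophage markers, Cd14 among them, had a difference above 0. Their mean per tumour ran from −0.12 to 0.82 in the labelled double knockouts, from −0.42 to 0.03 in the Itgb3 knockouts and from −0.34 to 0.35 in control (log2, relative to the control mean). Their part in the Cd14 result was not tested.

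Of 21 tested transcription factors and cofactors of luminal or epithelial identity, 2 rose against the Itgb3 knockouts: Grhl2, a grainyhead factor of epithelial junctions (0.42, limma adjusted p = 0.0463), and Zfpm1, the GATA cofactor FOG1 (0.61, limma adjusted p = 0.0493). The epithelial ETS factor Elf3 and the AP-2 factor Tfap2b differed from control by 1.07 and −2.21 without passing (limma adjusted p = 0.103 and 0.176), and Tfap2b ran from 3.32 to 8.98 among the labelled double knockouts. Of 7 tested Kit ligand and signalling genes, 2 rose against the Itgb3 knockouts: Cbl, the ubiquitin ligase that ends receptor kinase signalling (0.67, limma adjusted p = 0.00727), and the factor Ets1 (0.48, limma adjusted p = 0.0409). Against control Grhl2, Zfpm1, Cbl and Ets1 did not pass (0.25, 0.36, 0.32 and 0.31, limma adjusted p = 0.229, 0.235, 0.141 and 0.182). None of 16 other hormone receptors and none of 5 other keratins passed in any comparison. The notch ligand Jag1, on the basal list, rose against control (0.96, limma adjusted p = 0.0499) and the Itgb3 knockouts (1.2, limma adjusted p = 0.0111).

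Markers of stroma, vessels, epithelium and T and NK cells are given beside the comparison with the Itgb3 knockouts, as a description. The median difference of the 12 fibroblast markers was 0.92 for labelled double knockouts minus Itgb3 knockouts, with 12 of 12 above 0, and their mean per tumour ran from −0.57 to 1.18 and from −1.58 to 0.53, which overlap (log2, relative to the control mean). The 10 endothelial markers were all above 0 with a median of 0.34, and the 15 general epithelial markers had a median of 0.27, beside 0.03 for all tested genes. Of these 3 lists 0 genes passed in any comparison. In the same comparison the 11 tested basal markers had a median of 0.29, with 9 above 0, 2 below and 1 called higher. The 6 T and NK cell genes had a median of 0.45, with 5 above 0. The 7 adipocyte genes had a median of 0.10, with 4 above 0. With fibroblast and adipocyte marker means as covariates the Krt8 difference was 0.40 (adjusted p = 0.333), and with the epithelial marker mean it was 0.57 (adjusted p = 0.143).

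Beside Cd14 and Jag1, which passed against control, the genes with the smallest p on these lists did not pass in the labelled double knockouts against control. On the prolactin list these were the STAT5 feedback inhibitors Socs3 (0.48, limma adjusted p = 0.127) and Socs1 (−0.29, 0.225), and on the alveolar list, after Cd14, the retinoic acid enzyme Aldh1a3 (0.76, 0.0873). Among other receptors they were Nr2f2 (0.72, limma adjusted p = 0.0795) and the thyroid hormone receptor Thra (−0.35, 0.179), and among keratins Krt7 (0.45, 0.554) and Krt10 (−0.21, 0.646). The epithelial genes Muc1 and Esrp2 differed by 0.79 and 0.37 (limma adjusted p = 0.132 and 0.139), and on the basal list, after Jag1, the myosin kinase gene Mylk by 0.49 (0.146). The fibroblast genes Thy1 and Fap differed by 1.03 and 0.68 (limma adjusted p = 0.0527 and 0.289). In Thy1 all 6 labelled double knockouts lay above every control, as 1.19% of all genes did, with the lowest at 6.06 and the highest control at 6.02. The endothelial receptors Tie1 and Tek differed by 0.44 and 0.70, and the T cell genes Cd3e and Cd3g by 0.68 and 0.56 (limma adjusted p = 0.145, 0.156, 0.325 and 0.386). The adipocyte genes Plin1 and Cidec differed by −0.19 and 0.35 and the mast cell genes Cpa3 and Tpsb2 by 0.15 and −0.01 (limma adjusted p = 0.517, 0.647, 0.898 and 0.973). Of the 7 adipocyte, 6 T and NK cell and 2 mast cell genes tested, 0 passed in any comparison.

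**Figure D5:**
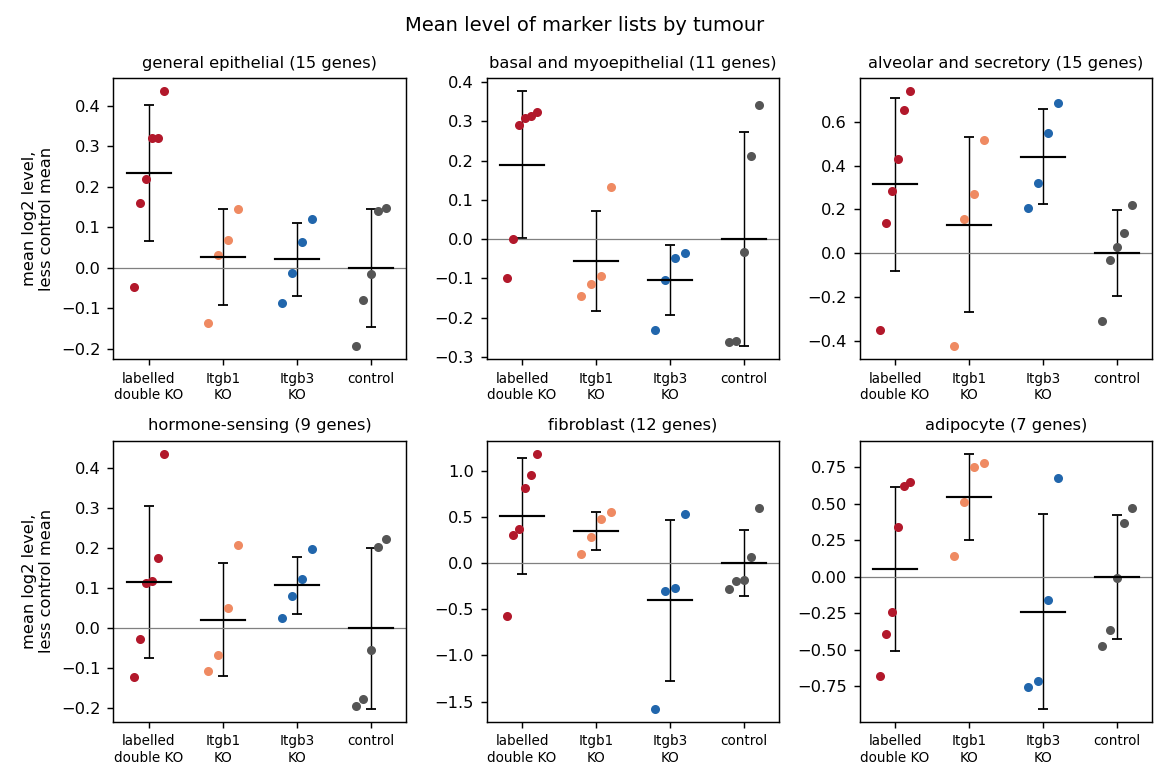
Mean log2 level of 6 marker lists per tumour, less the control mean. Each point is 1 tumour, the line is the group mean and the bar spans 1 SD on each side. The fibroblast means run from −0.57 to 1.18 in the labelled double knockouts and from −1.58 to 0.53 in the Itgb3 knockouts.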

How the data were processed

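Total RNA of 19 tumours was measured on an Affymetrix whole-transcript array, 1 array per tumour. The deposited table, made by the authors, holds 1 normalized log2 intensity per probe set. Normalization used Affymetrix Expression Console, per the submitters' processing notes, while the version and background correction were not given in the sources used here. Values were used as deposited. Of 41345 probe sets, 23521 have 1 gene symbol, 1814 several and 16010 none. Probe sets with 1 symbol were tested where the value reached the table median (4.38) on at least 4 arrays, and the set with the highest mean was kept per gene (14231 genes). Limma 3.58.1 in R 4.3.3 (lmFit and eBayes) tested differences in 1 fit over 19 arrays with 1 mean per genotype (15 residual degrees of freedom), in 8 two-sided comparisons. P-values were Benjamini-Hochberg adjusted over all genes tested. The fit was checked on simulated data with shifts larger than any member difference reported here. That check does not show whether differences of the reported size would be called. Correlations between genes used 100000 permutations within genotypes. The number of arrays limits the precision.

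The members and gene lists were chosen with earlier results of these data known. The genes named are all members, every list gene that passed in any comparison (at most 6 a list), the 2 with the smallest p per list against control for the labelled double knockouts, and the 3 most alike genes per member. Genes named only with the number of arrays on which they reached the filter are outside that rule. Greb1, Tnfsf11, Krt14, Krt23 and the mast cell genes under the filter are among them. They were named after their values were seen. Gene names, chromosomes and promoters came from RefSeq GRCm38.p6. Alternatives covered filter, scaling, probe set choice, array weights, variance model, marker covariates, arrays in the fit and each tumour left out.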

Additional observations from a re-analysis of the deposited data

Results flagged for a closer look

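In 5 of 36 gene-by-genotype groups, 1 tumour lay far from the rest of its group by Dixon's test, where chance alone marks about 1 in 20. Pgr was at 4.79 in control replicate 2. Elf5 was at 8.24 in Itgb1 knockout replicate 1. Kit was at 9.68 in labelled double knockout replicate 6. Krt19 was at 5.34 in labelled double knockout replicate 1. Krt18 was at 10.98 in control replicate 3, the lowest control.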

How the results depend on the processing

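The 64 member differences were recomputed under 13 alternatives and with each of the 19 tumours left out in turn, 2016 values in all, of which 5 passed. All 5 were in the labelled double knockouts against the Itgb3 knockouts, where the number of members called was 0 as reported. It was 1 with arrays centred on their medians, 2 with array weights, 1 with the epithelial marker covariate, and 0 to 1 when a tumour was left out, 1 without control replicate 5. The sign was opposite in 70 values, in 2 of which the reported difference exceeded its standard error. These were Krt18 in the labelled double knockouts against the Itgb1 knockouts (−0.00714, reported 0.21) and against the Itgb3 knockouts (−0.0368, reported 0.26), both with the chromosome 15 mean as a covariate, and the cause was not tested. Foxa1 and Krt19 gave no value under the stricter intensity filter. That covariate and leaving out labelled double knockout replicates 1 and 2 together were chosen after seeing the data. No paired analysis was possible because the replicate numbers follow accession order, as the labels give none.

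Limits are the small groups, levels near the filter for Foxa1 and Krt19, and whole-tumour RNA.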
